A study of Rattus norvegicus with 2 samples.

Results

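The reproducibly 8-oxoG-depleted fragments are stretches of 1 Mb on chromosomes 1 to 20 in which DNA pulled down with an antibody against 8-oxoguanine (8-oxoG) was low relative to input DNA in both rats studied. They were selected on the measured log2 ratio of immunoprecipitated (IP) DNA over input DNA. Each fragment had to hold at least 20 probes and to have a mean level below -0.25 on both arrays. A level is the log2(IP/input) of a probe minus the median over the probes of its array, so that a level of 0 marks the middle of the array and does not mean that 8-oxoG was absent. Of 2543 fragments with enough probes (called eligible below), 268 met the rule, which is 10.5%. Because these levels chose the fragments, they are given as a description with no test, and nothing is read from the count itself.

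The study profiled 8-oxoG along the genome of the rat kidney. DNA of untreated normal kidney from male Wistar rats (spelled Wister in the labels) aged 5 weeks was precipitated with the 8-oxoG antibody N45.1, labelled with Cy5 and hybridised together with Cy3-labelled input DNA, at 800 ng of DNA per labelling. There was 1 array for each of 2 rats, the dyes were not exchanged between arrays, and no other group was included. A low level can therefore not be told apart from a difference between the dyes, and whole kidney mixes all of its cell types.

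8-oxoG is formed when reactive oxygen species oxidise guanine, the base most easily oxidised in DNA. It can pair with adenine during replication, which leads to G-to-T changes, and it is removed by base excision repair that starts with the glycosylase OGG1. The kidney has a high oxygen consumption because of active transport in its tubules. Genes in the fragments were not named here, because no annotation and no sequence of the assembly of the files (rn4) was used.

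The depleted fragments held 27941 probes, or 12.7% of the probes kept on these chromosomes. Their median level was -0.33 on replicate 1 and -0.34 on replicate 2, with quartiles from -0.38 to -0.29 and from -0.42 to -0.29. The mean of both arrays ranged from -0.66 to -0.25, was below -0.4 in 54 fragments and was below -0.5 in 4. The set therefore lies mostly close to the threshold that defined it. Replicate 1 minus replicate 2 was 0.02 ± 0.11 (mean ± SD over fragments), and replicate 1 was the higher array in 156 fragments and replicate 2 in 112. Across the 268 fragments Pearson's r between arrays was 0.09, against 0.81 across all 2543 eligible fragments. The rule cuts off the range of both arrays, which lowers r within the set by construction, so the 2 values cannot be compared.

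**Figure D1:**
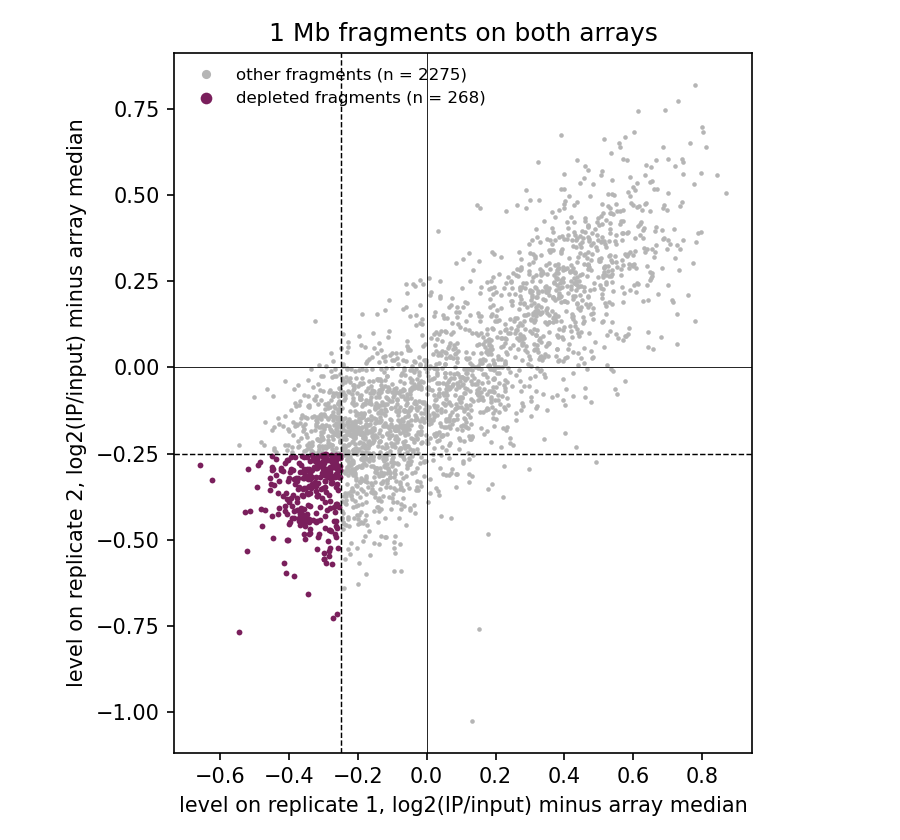
Level of each eligible 1 Mb fragment on replicate 1 (horizontal axis) and replicate 2 (vertical axis), both as log2(IP/input) minus the median of the array. The 268 depleted fragments lie below -0.25 on both axes (dashed lines), and the other 2275 eligible fragments are grey.

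The threshold passed through a dense part of the distribution. The 5 members just inside it had a higher array between -0.2517 and -0.2502, with 65 to 175 probes. The 5 fragments just outside had a higher array between -0.2499 and -0.2480, with 58 to 147 probes. Among the first, chr18:26000001-27000000 (rn4, as all positions here) had -0.2502 on replicate 1 and -0.2542 on replicate 2, whereas chr8:65000001-66000000 missed the rule with -0.3362 and -0.2499. Within 0.01 of the threshold there were 28 members and 27 fragments that were not members. A further 27 fragments of these chromosomes held too few probes to be eligible, and 1 of them was below -0.25 on both arrays.

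The size of the set depended on how levels were computed. After normexp background correction, which models the background of each array and adds an offset of 50, no fragment was below -0.25 on both arrays, since 19 were below it on replicate 1 and 0 on replicate 2. The SD over all eligible fragments was then 0.09 on replicate 1 and 0.03 on replicate 2, against 0.30 and 0.26 before. The fixed threshold thus lay far outside the spread on replicate 2, so a count of 0 was built into this alternative. The mean level of the 268 fragments was then -0.18 on replicate 1 and -0.05 on replicate 2, against -0.07 and -0.02 in the other eligible fragments. Of the 268, 267 were below 0 on both arrays after this correction, as were 71.6% of all eligible fragments. When the median over the probes of a fragment replaced the mean, 77 fragments passed, of which 68 belonged to the 268. Levels of the 268 were thus closer to 0 with either choice, most of all on replicate 2 after normexp, and nearly all members stayed below 0 on both arrays. Their order did not hold as well. Ranked by the higher array, the 268 lowest fragments held 73 of the members after normexp (27.2%) and 166 with the median over the probes (61.9%). Members make up 10.5% of all eligible fragments. This ranking was added after the data were seen.

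Each array can be read on fragments that the other array alone would choose. Below -0.25 were 481 eligible fragments on replicate 1 (18.9%) and 596 on replicate 2 (23.4%). Of the 481, 268 were also below -0.25 on replicate 2 (55.7%, exact 95% binomial interval 51.2% to 60.2%, which covers counting error only), and of the 2062 eligible fragments not chosen on replicate 1, 15.9% were. In the other direction 268 of the 596 were below -0.25 on replicate 1 (45.0%, interval 40.9% to 49.1%), against 10.9% of those not chosen on replicate 2. Both shares hold the 268 members in their numerator and so rest on the values that defined the set. Fragments are not replicates, and neighbours along a chromosome share signal.

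Levels on the other array were also read for their sign. The 481 fragments low on replicate 1 had a mean of -0.27 on replicate 2, and 99.0% of them were below 0 there, against 63.8% of all eligible fragments. The 596 fragments low on replicate 2 had a mean of -0.22 on replicate 1, and 93.8% of them were below 0, against 52.8%. These shares include the 268 fragments low on both arrays. Of the 213 low on replicate 1 alone, 5 were above 0 on replicate 2 (2.35%), and of the 328 low on replicate 2 alone, 37 were above 0 on replicate 1 (11.3%). Of all eligible fragments not low on the array read, 47.3% were above 0 on replicate 2 and 58.2% on replicate 1. A level above 0.25 on the other array was found for 0 of the 481 and for 2 of the 596. Of all eligible fragments, 13.6% were above 0.25 on both arrays, so the share on each array alone was at least that. The upper quartile over all eligible fragments was 0.12 on replicate 2 and 0.28 on replicate 1.

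The same question was put to separate probes of a fragment. With every other probe along the chromosome (odd probes, at least 10 per fragment), 287 fragments were below -0.25 on both arrays. On the even probes, which that choice did not use, 88 of these were below -0.25 on both arrays (30.7%, against 10.9% of all 2543 fragments), and 84.3% were below 0 on both (46.5% of all). Chosen on even probes, 277 fragments were low, and 31.8% of them were low on the odd probes.

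Single probes in the depleted fragments varied widely around these means. Of the 27941 probes, 42.4% were below 0 on both arrays and 19.4% were above 0 on both, whereas over all 219941 probes of the chromosomes the shares were 31.7% and 31.4%. Levels below -1 on both arrays were found for 7.52% of the probes of depleted fragments and for 4.62% of all probes. Levels above 1 on both were found for 1.52% and 5.81%. Probes of depleted fragments were thus more often low, also below -1, and less often strongly positive. Since these probes make up the means that chose the fragments, such differences were built in and show only how the low levels were spread. The SD over the probes of depleted fragments was 0.92 on replicate 1 and 1.24 on replicate 2, nearly that of all probes (0.96 and 1.24).

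No fragment was made up of low probes alone. The share of probes below 0 on both arrays was 29.8% in the lowest member, 42.3% in the median member and 62.5% in the highest. The median probe was below 0 on both arrays in 265 of the 268 fragments (98.9%), against 41.0% of all eligible fragments. It was below -0.25 on both arrays in 68 (25.4%), against 3.03% of all. Pearson's r between arrays over the probes of depleted fragments was 0.25, against 0.34 over all probes and 0.42 over the probes of fragments above 0.25 on both arrays (346 fragments, called rich below). These values describe probes, which share arrays and fragments. Depleted and rich fragments were chosen on the means of these probes on both arrays, so r cannot be compared between the sets.

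Averages over shorter parts of the fragments were more even. The depleted fragments held 1313 parts of 200 kb with at least 5 probes, and 86.4% of these were below 0 on both arrays, against 40.2% of such parts over all fragments. Below -0.25 on both arrays were 46.5%, against 13.8%, and 30 parts were above 0 on both (2.28%), against 32.5%. In 248 fragments all 5 parts were measured, and all 5 were below 0 on both arrays in 116 fragments, 4 were in 102, and 3 or fewer in 30. At least 4 of 5 parts were thus below 0 on both arrays in 87.9% of these, against 24.2% of all eligible fragments with 5 measured parts. At 500 kb, 264 fragments had both parts measured with at least 10 probes. Both parts were below -0.25 on both arrays in 68 fragments, 1 part was in 184 and no part in 12, and both parts were below 0 on both arrays in 255 (96.6%). Over all eligible fragments with both parts measured, both were below -0.25 in 2.72%, 1 part was in 18.8% and no part in 78.5%, and both were below 0 in 32.9%. These shares follow in part from the rule, since the parts make up the mean that chose the fragment.

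The channels behind the ratio were compared with those of the other fragments. Relative to the median of the array, the log2 input intensity of depleted fragments had a median of 0.06 on replicate 1 and 0.08 on replicate 2, against -0.25 and -0.26 in the other 2275 eligible fragments and -1.12 and -1.20 in the rich ones. The log2 IP intensity had a median of -0.29 on replicate 1 and -0.22 on replicate 2 in depleted fragments, against -0.27 and -0.30 in the other eligible fragments. In rich fragments it was -0.63 and -0.77. Depleted fragments thus had a brighter input than the others on both arrays, while their IP signal was close to that of the others on replicate 1 and higher on replicate 2. Input is the denominator of the level, so it is not independent of the rule, and its part in the low levels was not tested.

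Across all eligible fragments the mean level had a Pearson correlation of -0.78 with the mean log2 input intensity (n = 2543, a description, since both hold the input channel). When eligible fragments were divided into 5 classes of equal size by input intensity, 0.196% of the dimmest class were depleted, followed by 2.36%, 8.84%, 16.1% and 25.1% of the brightest. Of the 268 fragments, 128 were in the brightest class and 1 was in the dimmest. Depleted fragments were therefore concentrated where the input was bright. After the running trend of the level on input intensity was removed on each array, 213 fragments passed the rule and 195 of them belonged to the 268. The median input of fragments that passed was then -0.01 on replicate 1 and 0.0047 on replicate 2, still above that of the other eligible fragments (-0.23 and -0.24).

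Levels were also compared between probes of similar input brightness. Probes were divided into deciles by input intensity on each array, a division added after the data were seen. In all 10 deciles on both arrays, probes of depleted fragments had a lower mean level than probes of other eligible fragments. The difference was largest in decile 4 of replicate 1, where the means were -0.26 and 0.28, and in decile 2 of replicate 2, where they were -0.15 and 0.31. Among the brightest probes it was smaller, with -0.57 and -0.44 on replicate 1 and -0.85 and -0.74 on replicate 2. Since probes of depleted fragments were chosen for low levels, a lower mean was built into this comparison, and it shows only how the difference was spread over brightness.

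**Figure D2:**
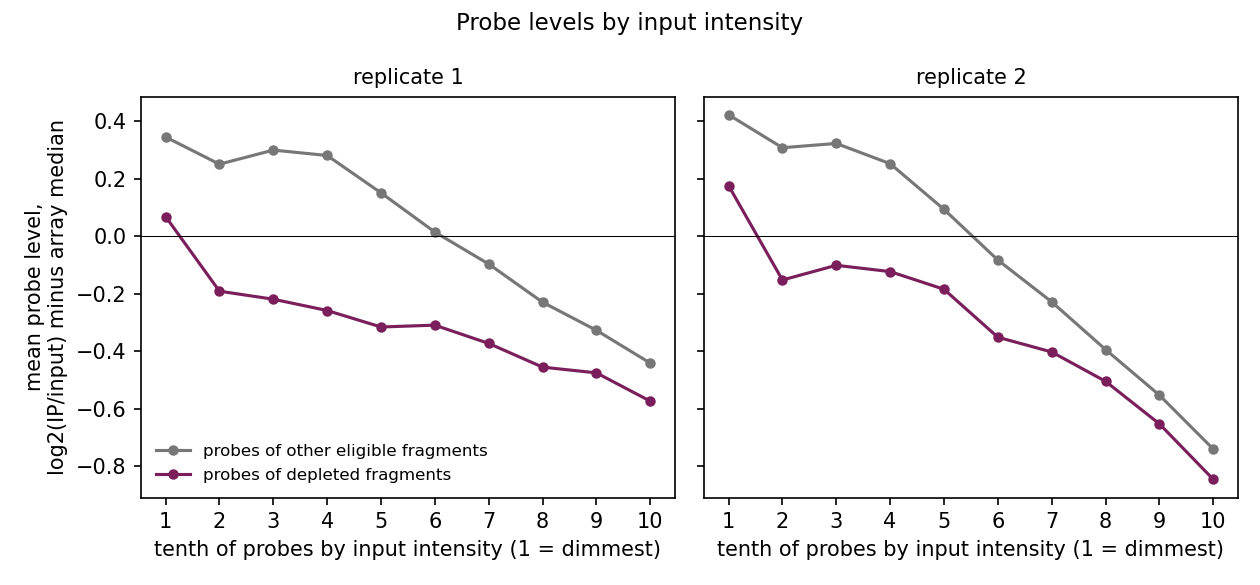
Mean probe level, as log2(IP/input) minus the median of the array, in 10 classes of equal size by input intensity (1 is the dimmest), for replicate 1 (left) and replicate 2 (right). Probes of depleted fragments lie below those of other eligible fragments in all 10 classes on both arrays, and in both groups bright probes have lower levels.

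Depleted fragments were also densely covered by probes. They had a median of 106.5 probes, against 79 in the other eligible fragments and 51 in the rich ones. At least 100 probes were found in 143 of the 268 (53.4%), against 31.8% of the others. Of the eligible fragments with 20 to 49 probes, 1.36% were depleted, followed by 8.08% at 50 to 74 probes, 11.4% at 75 to 99, 16.4% at 100 to 149 and 17.0% at 150 or more. The number of probes is a property of the array, which the rule used only through its minimum, and sparsely covered DNA was seldom depleted. Across all eligible fragments the mean level had a Pearson correlation of -0.41 with the number of probes (n = 2543). Across the 268 fragments it was 0.28, a description of the set only. The rule cuts off the range of levels within the set, so this value cannot be compared with that over all eligible fragments. A mean over fewer probes also varies more, and the part of this in the 0.28 was not tested.

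The members with most probes were chr5:172000001-173000000 (218 probes, -0.29 on replicate 1 and -0.30 on replicate 2), chr3:155000001-156000000 (188 probes, -0.36 and -0.44) and chr4:149000001-150000000 (187 probes, -0.30 and -0.33). The members with fewest were chr1:121000001-122000000 (21 probes, -0.45 and -0.34), chr1:89000001-90000000 (41 probes, -0.39 and -0.44) and chr4:129000001-130000000 (43 probes, -0.28 and -0.33). In the first of these the median probe was at -0.54 on replicate 1 but at 0.07 on replicate 2. Its mean on replicate 2 was thus set by a minority of low probes.

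Depleted fragments were found on each of the 20 chromosomes, in unequal shares. The highest shares of eligible fragments were 21.7% on chromosome 12 (10 of 46, exact 95% interval 10.9% to 36.4%), 21.6% on chromosome 10 (24 of 111, 14.4% to 30.4%) and 16.7% on chromosome 19 (10 of 60, 8.29% to 28.5%). The lowest were 3.91% on chromosome 2 (10 of 256, 1.89% to 7.07%), 5.66% on chromosome 15 (6 of 106, 2.11% to 11.9%) and 5.68% on chromosome 18 (5 of 88, 1.87% to 12.8%). The intervals cover counting error only and treat neighbouring fragments, which share signal, as independent. With the grid of fragments shifted by 500 kb, chromosome 12 had 26.1%, chromosome 19 had 17.2%, chromosome 10 had 14.4%, chromosome 18 had 13.8%, chromosome 11 had 9.09%, chromosome 15 had 8.41% and chromosome 2 had 7.39%, and the lowest share was that of chromosome 20 (5.45%). With only probes well above background, chromosome 12 had 15.2%, chromosome 10 had 13.5%, chromosome 19 had 10.2% and chromosome 2 had 2.36%. Under the same filter, chromosome 8 went from 13.2% to 6.20% and chromosome 7 from 11.2% to 4.23%. With the shifted grid the shares of 2 and 18 left their exact 95% intervals, and that of 10 fell to the lower end of its own. The shares of single chromosomes thus depended on where the fragments began. Over all eligible fragments the share was 10.8% with the shifted grid and 7.75% with the filter, against 10.5%. With the filter the shares of 7, 8 and 10 left their intervals, whereas those of 2 and 19 fell but stayed within theirs.

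On single arrays, chromosome 10 was the most often low, with 39.6% of its fragments below -0.25 on replicate 1 and 40.5% on replicate 2. Chromosome 12 had 37.0% and 26.1%, chromosome 19 had 35% on each array, chromosome 8 had 22.5% and 32.6%, and chromosome 2 had 7.81% and 13.3%. Over all eligible fragments the shares were 18.9% and 23.4%, so chromosome 12 was near that share on replicate 2. Rich fragments were 1 of 111 on chromosome 10 (0.901%) and 0 of 46 on chromosome 12, against 13.6% of all eligible fragments. Chromosome 17 also had few rich fragments (4 of 95, 4.21%), with 8.42% depleted. Chromosome 11 held both kinds, with 13 depleted (14.8%) and 21 rich fragments (23.9%). The mean level of the depleted fragments of a chromosome ran from -0.31 to -0.37 on replicate 1 and from -0.33 to -0.44 on replicate 2, a range that the rule bounds on its upper side. Chromosomes 10 and 12 had a median of 108 and 105 probes per fragment, against 65.5 on chromosome 2. Their median input on replicates 1 and 2 was -0.04 and -0.03 on chromosome 10, and -0.14 and -0.13 on chromosome 12. Chromosome 2 had -0.37 and -0.38, but chromosome 11 was as dim (-0.37 and -0.41). The part of probe number and input in the shares was not tested.

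**Figure D3:**
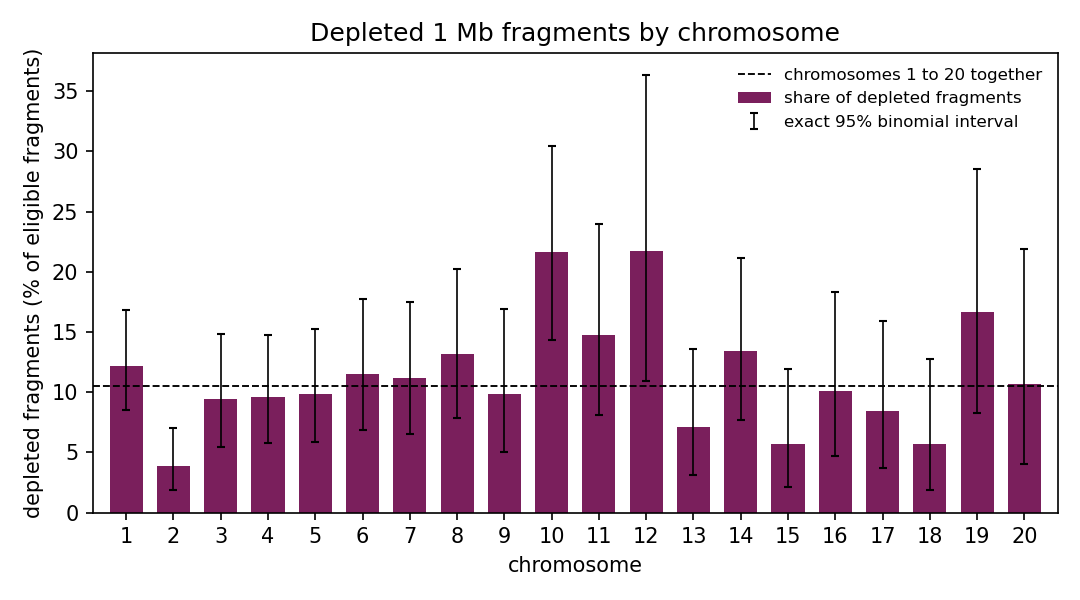
Share of eligible 1 Mb fragments that are depleted on chromosomes 1 to 20, in percent (bars), with the exact 95% binomial interval of each share and the share over all 20 chromosomes (dashed line, 10.5%). Chromosomes 10 and 12 have the highest bars and chromosome 2 the lowest.

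Near the ends of chromosomes the shares differed between sides. Among the first 3 Mb of the chromosomes, 2 of 57 eligible fragments were depleted (3.51%). Among the last 3 fragments with probes, 8 of 54 were (14.8%), and elsewhere 258 of 2432 were (10.6%). The numbers at the ends are small, and the difference was not tested.

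Depleted fragments formed 206 stretches of adjacent members, of which 157 were single fragments, 40 had 2 fragments, 7 had 3, 1 had 4 and 1 had 6. A depleted neighbour was found for 41.4% of depleted fragments, against 16.1% of the other eligible fragments and 18.8% of all, and 65.9% of the 346 rich fragments had a rich neighbour, against 22.7% of all eligible fragments. The rich fragments formed 196 stretches, of which 41 were at least 3 Mb long, against 9 of the depleted stretches. The classes differ in number (10.5% and 13.6% of eligible fragments), which by itself changes how often neighbours share a class. Joining stretches across 1 fragment that was not a member, a choice made after the data were seen, left 167 stretches with a longest of 10 Mb.

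The longest stretch was chr11:30000001-36000000, with 6 fragments, 507 probes and a mean level of -0.40 on replicate 1 and -0.35 on replicate 2 (-0.37 ± 0.03, SD, n = 2). Its fragments ranged from -0.41 to -0.34, and the next fragment on the lower side was at 0.0006 and that on the upper side at -0.21. The latter missed the rule on replicate 1 alone, with -0.16 on replicate 1 and -0.26 on replicate 2, and chr11:37000001-38000000 was again depleted, at -0.36 and -0.32. It also lies on the chromosome with the highest share of rich fragments. The second longest stretch, chr5:165000001-169000000, had 526 probes and means of -0.37 and -0.27 (-0.32 ± 0.07). The fragment before it was at 0.29 on replicate 1 and 0.06 on replicate 2, and the fragment after it missed the rule on replicate 2 alone, with -0.31 and -0.20.

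Of the stretches of 3 Mb, the lowest was chr1:197000001-200000000, at -0.39 on replicate 1 and -0.46 on replicate 2 (-0.43 ± 0.05, SD, n = 2). It was followed by chr16:82000001-85000000, at -0.44 and -0.37 (-0.40 ± 0.04), and chr6:131000001-134000000, at -0.38 and -0.38 (-0.38 ± 0.0017). In the first of these the level rose steadily from -0.53 to -0.41 and -0.34, and the following fragment was above 0 on both arrays, at 0.12 and 0.03. In the stretch on chromosome 6 it changed little, from -0.39 to -0.35.

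Fragments next to a depleted stretch were low as well. The 367 eligible neighbours that were not members had a mean level of -0.15 on replicate 1 and -0.16 on replicate 2, against 0.13 and 0.01 in the 1908 eligible fragments that were neither members nor neighbours. Of the neighbours, 82.6% were below 0 on both arrays, against 36.3% of the 1908, and 177 were below -0.25 on exactly 1 array (48.2%, against 19.1% of the 1908). That neighbours were higher than members follows from the rule, which leaves their difference from the fragments farther away.

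The mean level was followed on either side of the depleted fragments. At 1 Mb from a depleted fragment the mean level was -0.20 on replicate 1 and -0.21 on replicate 2 on the lower side, and -0.21 and -0.22 on the upper side. At 5 Mb it was -0.05 and -0.11 on the lower side and -0.06 and -0.12 on the upper side, and at 10 Mb it was 0.0036 and -0.07 and -0.0009 and -0.08. Over all eligible fragments the means were 0.04 and -0.05, so the difference was small at 10 Mb. Depleted fragments made up 23.4% of the fragments at 1 Mb on each side and 7.29% and 7.83% at 10 Mb. Rich fragments made up 1.51% and 0.755% at 1 Mb and 11.3% and 7.83% at 10 Mb, against 13.6% of all eligible fragments. Input intensity ran in the opposite direction and fell with distance, from 0.05 and 0.07 in the depleted fragments to -0.06 and -0.05 at 1 Mb and -0.27 and -0.29 at 10 Mb on the lower side, and its part in the low levels was not tested.

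**Figure D4:**
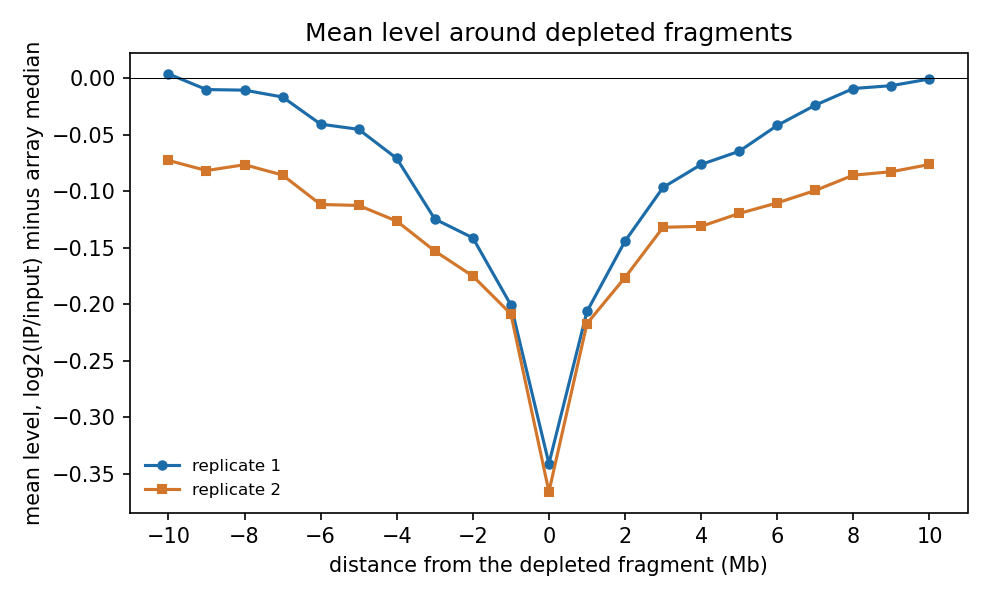
Mean level of eligible 1 Mb fragments, as log2(IP/input) minus the median of the array, against the distance from a depleted fragment in Mb, for replicate 1 and replicate 2. The lowest point at 0 holds the 268 depleted fragments themselves, and both arrays rise to about -0.2 at 1 Mb and towards their means at 10 Mb.

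A rich fragment lay directly beside 5 of the 268 depleted fragments (1.87%), against 22.7% of all eligible fragments. The 5 were named after their values were seen. They are chr7:19000001-20000000, chr11:63000001-64000000, chr11:73000001-74000000, chr14:77000001-78000000 and chr20:41000001-42000000. The rich neighbour of chr11:63000001-64000000 was at 0.49, and the fragment itself was at -0.33 on replicate 1 and -0.30 on replicate 2.

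The lowest fragment with at least 50 probes was chr4:83000001-84000000. Its 51 probes had a mean of -0.54 on replicate 1 and -0.77 on replicate 2 (-0.66 ± 0.16, SD, n = 2), and 54.9% of them were below 0 on both arrays. The part with the lowest mean was its last 200 kb, at -0.91 and -1.36, which held a probe at -2.24 on replicate 1 and -6.69 on replicate 2. Without that probe the part was at -0.80 and -0.92 and the fragment at -0.51 and -0.65, a check added after the data were seen. With only probes well above background the fragment was at -0.47. The fragment before it, chr4:82000001-83000000, was also depleted, at -0.34 and -0.35, whereas the fragment after it was at -0.13 on average.

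The second lowest was chr1:197000001-198000000 (51 probes), which had -0.52 on replicate 1 and -0.53 on replicate 2 (-0.53 ± 0.0071, SD, n = 2). Of its parts, that from 0.4 to 0.6 Mb was close between arrays, at -0.87 on replicate 1 and -0.84 on replicate 2, whereas that from 0.2 to 0.4 Mb was at 0.01 and -0.76. Its input was among the brightest of the named fragments, at 0.51 and 0.64. Its IP signal was at -0.02 on replicate 1 and 0.16 on replicate 2. Both values were above the upper quartile of all eligible fragments, which was -0.08 on each array. Next came chr3:54000001-55000000 (71 probes), with -0.41 on replicate 1 and -0.60 on replicate 2 (-0.50 ± 0.13). Its part from 0.4 to 0.6 Mb was at -0.97 and -0.95, whereas that from 0.6 to 0.8 Mb was at -0.03 and -0.80 and that from 0 to 0.2 Mb, with 3 probes, at 0.08 and -0.93.

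The next 4 were chr7:124000001-125000000 (-0.34 on replicate 1 and -0.66 on replicate 2), chr11:73000001-74000000 (-0.27 and -0.73), chr1:205000001-206000000 (-0.39 and -0.60) and chr18:71000001-72000000 (-0.41 and -0.57). The last 3 of the 10 lowest were chr18:73000001-74000000 (-0.26 on replicate 1 and -0.72 on replicate 2), chr9:88000001-89000000 (-0.62 and -0.33) and chr10:76000001-77000000 (-0.53 and -0.42). Replicate 2 was the lower array in 8 of the 10, and it was so in 156 of all 268 fragments (58.2%) and in 69.3% of all eligible fragments.

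The 10 lowest fragments held 51 to 127 probes each, and 41.5% to 54.9% of these were below 0 on both arrays. Of their 45 parts of 200 kb with at least 5 probes, 43 were below 0 on both arrays, a share that was 86.4% over the parts of all depleted fragments. Input intensity was above the median of the array on both arrays in 8 of the 10, against 59.7% of all 268 and 27.1% of all eligible fragments, the exceptions being chr1:205000001-206000000 (-0.38 and -0.40) and chr10:76000001-77000000 (-0.02 and -0.05). In chr1:205000001-206000000 the IP signal was at -0.77 on replicate 1 and -0.94 on replicate 2. A depleted neighbour was found for 3 of the 10, against 41.4% of all 268. Without the probe of its lowest mean level, a check added after the data were seen, each of the 10 was still below -0.25 on both arrays except chr9:88000001-89000000, which was then at -0.58 on replicate 1 and -0.23 on replicate 2.

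**Figure D5:**
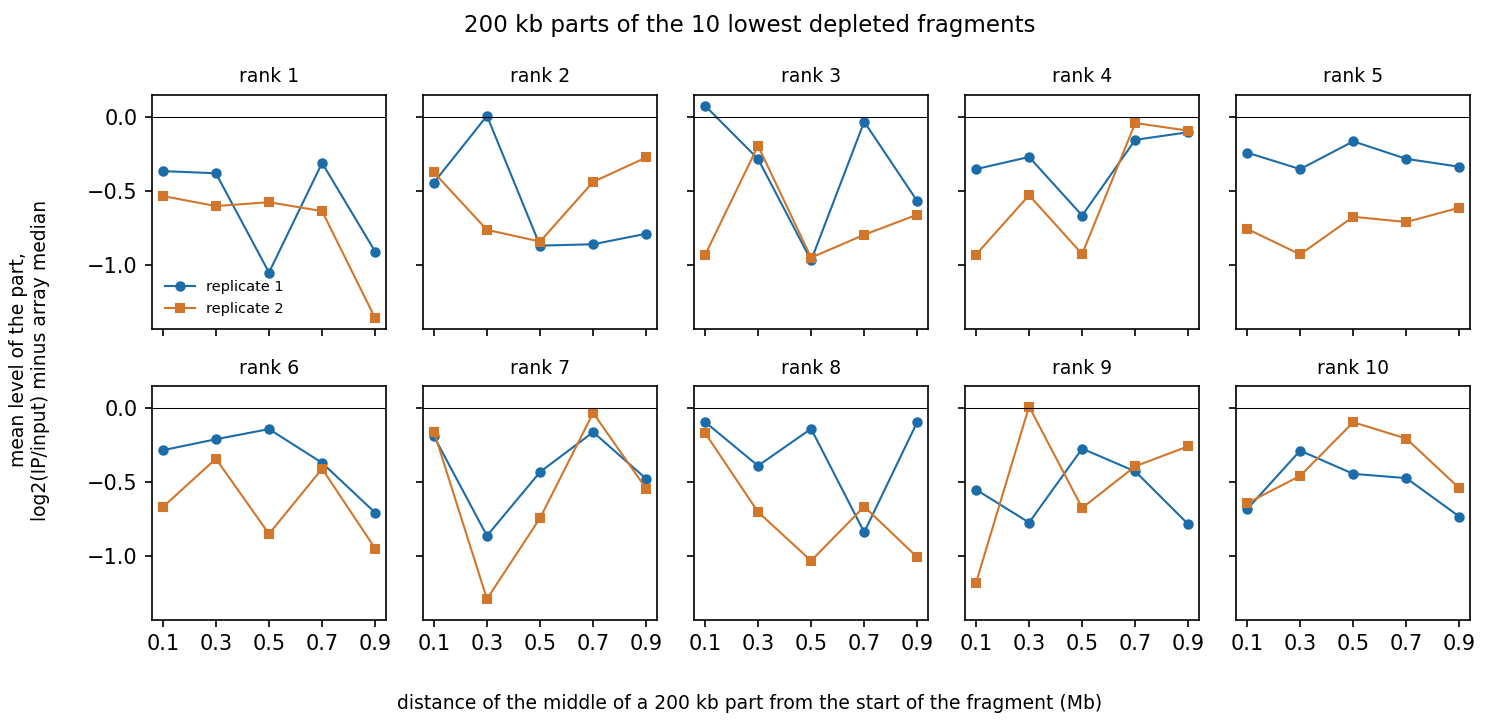
Mean level of 200 kb parts, as log2(IP/input) minus the median of the array, of the 10 lowest depleted fragments with at least 50 probes (rank 1 is the lowest), against the distance of the middle of the part from the start of the fragment in Mb, for replicate 1 and replicate 2. Parts with fewer than 5 probes are drawn too, and nearly all points lie below 0.

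The largest differences between arrays within the set were those of chr18:73000001-74000000, chr11:73000001-74000000 and chr10:58000001-59000000. The first had -0.26 on replicate 1 and -0.72 on replicate 2, the second had -0.27 and -0.73, and the last had -0.66 and -0.28. Their SD between arrays was 0.32, 0.32 and 0.26, against a median of 0.04 over the 268 fragments. All 3 were close to the threshold on the higher array. The fragment between the members at 71 and 73 Mb of chromosome 18, chr18:72000001-73000000, missed the rule with -0.33 on replicate 1 and -0.22 on replicate 2.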

How the data were processed

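Kidney DNA of 2 male rats was measured on 2 arrays, which form 1 group. With Agilent Feature Extraction 10.5.1.1 the authors made and deposited, per spot, processed intensity of both channels (background-subtracted, detrended, lowess dye-normalized), the log10 ratio of red over green and, for the series, a table of log2 values that is not centred. Here log2 of red over green processed intensity was averaged by probe and centred on the median of the array, leaving out controls and 305 outlier-flagged spots. Fragments of 1 Mb on rn4 were cut from base 1 and filled by probe start. The number of arrays limits the precision. Intervals of shares are exact binomial.

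Named fragments are the 10 lowest members with at least 50 probes, the 5 longest stretches, 5 fragments on each side of the threshold, the 3 members with most and the 3 with fewest probes, the 3 that differ most between arrays and the 3 chromosomes at each end of the shares. The members and lists were chosen with earlier results of these data known. Alternatives covered ratio, centring, background, filters, threshold, grid, size and single replicates. Python 3.11.15, numpy 2.4.6, pandas 2.3.3, scipy 1.17.1, matplotlib 3.10.9 and, for normexp, limma 3.58.1 in R 4.3.3 were used. The computation of fragments and stretches was run on simulated, independent probes with known depleted fragments. That checks the computation only and not the members found here. Genes and base composition were not analysed, since no genome or annotation of rn4 was used here.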

Additional observations from a re-analysis of the deposited data

How the results depend on the processing

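Normexp background correction left 0 depleted fragments, 0 stretches with a longest of 0 Mb, and a share of 0% of fragments low on replicate 1 that were low on replicate 2. It gave no value for the other direction, the input level, the probe share or the neighbours. Ranked by the higher array, the 268 lowest fragments under normexp held 73 of the 268 members, a comparison added after the data were seen. That is 27.2%, against 10.5% members among all eligible fragments, and with the median over the probes it was 61.9%. The table of the authors holds the same log2 ratios without the array medians subtracted (0.01 on replicate 1 and 0.06 on replicate 2). It gave 164 fragments, all of them among the 268. The threshold of -0.20 gave 448 fragments and that of -0.30 gave 126. Only probes well above background gave 196 fragments, of which 150 belonged to the 268 (56.0% of the members). Before dye normalization there were 255 fragments, of which 211 belonged to the 268. Fragments of 500 kb with at least 10 probes numbered 610 and those of 2 Mb with at least 40 probes 123, so size and probe minimum changed together. The median over probes left 77 fragments in 71 stretches with a longest of 3 Mb, and the threshold of -0.30 left 109 stretches with a longest of 3 Mb. From replicate 1 to replicate 2, the share was 65.3% at -0.20, 43.0% at -0.30, 47.0% with probes well above background and 47.1% without the trend on input brightness. From replicate 2 to replicate 1 it was 56.4% at -0.20 and 32.1% at -0.30. The number of fragments low on the array read also changed. On replicate 2 it was 442 of 2530 with probes well above background and 477 of 2543 without the trend, against 596 of 2543. A change in these shares is therefore not by itself a change in how well the arrays agreed. Without the trend, the median input level of depleted fragments went from 0.07 to -0.0040, still above that of the other eligible fragments. It was 0.14 before dye normalization and 0.23 with probes well above background. The share of probes below 0 on both arrays was 45.9%, 43.7% and 40.4% before dye normalization, with probes well above background and without the trend, and neighbours had a mean of -0.13 and -0.14 under the first 2 of these. Without replicate 1 or 2, the count ranged from 481 to 596, stretches from 265 to 373 and the longest stretch from 8 to 11 Mb. Thresholds, fragment sizes with their probe minimum, single arrays and the narrower scale after normexp change counts by construction. So does the missing centring of the table of the authors. The cause of the other changes was not tested. Of 62 values for these results, single arrays aside, 34 stayed within the spread or within 1.5 times the count. Another 27 moved beyond that, and 1, the median input level without the trend, changed sign. For the 32 named levels, 165 of 288 values stayed within the SD between arrays, 123 moved beyond it, of which 111 towards 0, and none changed sign. Normexp moved all 32. Alternatives on genes and base composition were not run. No paired analysis was possible because both rats belong to a single group and no test was made. Signal over background limits dim probes, with 86.4% and 83.1% of IP spots well above background on replicates 1 and 2.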
